A study of Mus musculus and Ictidomys tridecemlineatus with 36 samples.

Results

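Active enhancers bound by Neurod1 without Otx2 were a small set in the developing retina of both species. They were defined from CUT&RUN peak lists as H3K27ac peaks that overlapped no H3K4me3 peak, overlapped a Neurod1 peak by at least 1 bp and overlapped no Otx2 peak of the same species. In the 13-lined ground squirrel (13LGS), 657 of 85510 active enhancers met this rule (0.768%), and in mouse 231 of 58164 did (0.397%), giving 888 of 143674 in all. The H3K27ac, H3K4me3, Neurod1 and Otx2 lists therefore chose these regions, and their values in those lists are given as a description. The term "bound" refers to a called peak, and a region without an Otx2 peak is one where no peak passed the authors' q-value threshold of 0.05.

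The lists came from whole retina, from P5 13LGS and P2 mice, with 36 CUT&RUN libraries in all. Each biological replicate was a pool of retinas, from 2 individuals in 13LGS and 3 in mouse, and the labels give no genotype, strain or treatment for either species. CUT&RUN cuts DNA around an antibody-bound protein in nuclei and sequences the released fragments. Neurod1 was profiled in 4 libraries per species and Otx2, with antibodies from R&D Systems and Atlas, in 6 libraries of 13LGS and 8 of mouse. Each histone mark was profiled in 1 library of 13LGS and 2 of mouse, and IgG, an antibody with no target, in 3 and 2 libraries. Every list pooled the libraries of its target, so no value below has a replicate error and read depth is unknown. Intervals are 95% Wilson intervals on counts of regions, and p-values bear on these pooled lists, since no spread between animals can be had from them. The species also differ in nuclei per reaction and in the number of libraries behind every list but that of Neurod1. The Atlas Otx2 antibody was used in both mouse replicates but in only 1 of the 13LGS replicates. None of this can be told apart from a species difference. Whole retina mixes cell types, so a factor bound in few cells and one bound weakly in many cells cannot be told apart.

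Neurod1 is a basic helix-loop-helix TF of differentiating neurons, amacrine cells and photoreceptors, and it binds E-boxes, short sites of the form CANNTG. Otx2 is a homeodomain TF needed for photoreceptor and bipolar cell development, and it recognises TAATCC. H3K27ac marks active promoters and enhancers, H3K4me3 marks promoters, and H3K4me1 is found at enhancers whether active or not.

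Mouse regions among those with the highest Neurod1 fold enrichment, the ratio of Neurod1 to IgG signal at the peak summit, are shown by sequence because they carry the strongest Neurod1 binding found without an Otx2 peak. Each window is 120 bases of the GRCm38 reference (RefSeq), plus strand, around a CAGATG (either strand) or CAGCTG site near the Neurod1 summit. Other kinds of E-box were not used to place the windows. Capitals mark CAGATG, its reverse complement CATCTG, and the palindrome CAGCTG. None of the windows shown contained TAATCC on either strand.
peak in *Zfp385c* (chr11:100629179-100629298): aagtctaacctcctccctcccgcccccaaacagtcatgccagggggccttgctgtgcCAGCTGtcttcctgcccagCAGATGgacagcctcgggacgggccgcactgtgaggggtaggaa
peak in *Pcdh15* (chr10:73931057-73931176): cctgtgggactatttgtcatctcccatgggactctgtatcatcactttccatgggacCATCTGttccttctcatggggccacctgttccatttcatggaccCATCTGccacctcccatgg
peak in *Mid1* (chrX:169956830-169956949): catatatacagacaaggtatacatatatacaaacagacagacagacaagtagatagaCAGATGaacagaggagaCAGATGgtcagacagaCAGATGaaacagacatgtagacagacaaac
peak near *Pgbd5* (chr8:124476589-124476708): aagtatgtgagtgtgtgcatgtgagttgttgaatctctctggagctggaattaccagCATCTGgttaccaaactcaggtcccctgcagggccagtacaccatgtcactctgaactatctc
peak in *Lurap1l* (chr4:80925918-80926037): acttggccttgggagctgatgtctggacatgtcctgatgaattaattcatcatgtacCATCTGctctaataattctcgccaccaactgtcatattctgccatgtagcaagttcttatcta
The capitalised E-box nearest the summit lay 103, 72, 27, 138 and 138 bp from it in the order shown. The *Zfp385c* window carried 1 CAGATG and 1 CAGCTG, and the *Pcdh15* and *Mid1* windows carried CAGATG on either strand 2 and 3 times. Both capitalised sites of the *Pcdh15* window lay in the Neurod1 peak but past the end of the H3K27ac peak, at 73931089. Most of that window is thus outside the active enhancer.

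The region with the highest Neurod1 enrichment, at 19.0-fold over IgG, lay at chr11:100628340-100629637 with its centre on an exon of *Zfp385c*, a zinc finger gene. Its H3K27ac enrichment was 4.04-fold, the nearest Otx2 peak was 1275 bp away, and the nearest protein-coding start was that of *Nkiras2*, 5978 bp away. In an intron of *Pcdh15*, a protocadherin of sensory hair cells and photoreceptors, chr10:73930836-73931089 reached 13.6-fold for Neurod1 and 3.07-fold for H3K27ac. It was the only one of the 8 highest mouse regions without an H3K4me1 peak, and 7 CAGATG sites lay within 200 bp of its Neurod1 summit. An intronic region of *Mid1*, which encodes a microtubule-associated ubiquitin ligase, reached 11.7-fold for Neurod1 and 5.28-fold for H3K27ac (chrX:169956259-169957609). The sequence within 200 bp of its Neurod1 summit held 14 CAGATG sites, the most of any of the 231, and 73.1% of it was marked as repeat in the reference. What the repeat contributed to the Neurod1 signal there was not tested.

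Other high mouse regions were weaker. A region outside genes, 37373 bp from the start of *Pgbd5*, a gene derived from a transposase, had a Neurod1 enrichment of 8.64-fold (chr8:124476547-124477515). The intron of *Lurap1l* held a region at 8.28-fold (chr4:80925522-80926075), and a region outside genes, nearest to *2010109A12Rik*, had 7.89-fold (chr5:93236008-93236270). The eighth, at 7.26-fold, was an intronic region of *Tead1*, a TF of the Hippo pathway, 814 bp from the *Tead1* start (chr7:112760178-112760541). It lay 58 bp from an Otx2 peak, so that a slightly wider H3K27ac peak would have placed it among the regions bound by both factors. In the *Lurap1l*, *2010109A12Rik* and *Tead1* regions the Neurod1 summit, where the fold was read, lay outside the H3K27ac peak.

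In 13LGS, the highest Neurod1 enrichment was 12.4-fold, at Itri2:144223001-144226021 and Itri11:36665636-36666359 on the HiC_Itri_2 build, with H3K27ac at 4.80-fold and 2.68-fold. A region at Itri8:646064-646518 had 11.5-fold for Neurod1, but its overlap with the Neurod1 peak was 39 bp and an Otx2 peak lay 88 bp away. Itri1:18904473-18904918 and Itri1:18905182-18905416 shared 1 Neurod1 peak of 10.8-fold and count as 2 regions. In these 2 regions and the Itri8 region the Neurod1 summit lay outside the H3K27ac peak. Regions at Itri18:37493042-37493765, Itri11:33133111-33138972 and Itri16:27058618-27059721 had Neurod1 enrichments of 10.7-fold, 10.5-fold and 10.2-fold. The second of these was the widest of the 8, at 5862 bp. All 8 overlapped an H3K4me1 peak. A genome and annotation of this build were not used here, so 13LGS regions are given without genes or sequence.

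Across all 657 13LGS regions, Neurod1 enrichment ran from 2.10-fold to 12.4-fold with a median of 3.48-fold (quartiles 3.00 and 4.16). The mouse regions ran from 2.02-fold to 19.0-fold with a median of 3.69-fold (quartiles 3.03 and 4.61). Most regions were therefore close to the lower end of this range, and a Neurod1 enrichment of at least 5-fold was found at 73 regions in 13LGS and 36 in mouse. An enrichment of at least 10-fold was found at 10 and 3. Neurod1 enrichment had almost no rank relation to H3K27ac enrichment (Spearman's rho 0.11 over 657 regions in 13LGS, and -0.014 over 231 in mouse), whereas wider H3K27ac peaks had higher H3K27ac enrichment (rho 0.63 and 0.70). These regions share their libraries, and the coefficients describe them only.

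**Figure D1:**
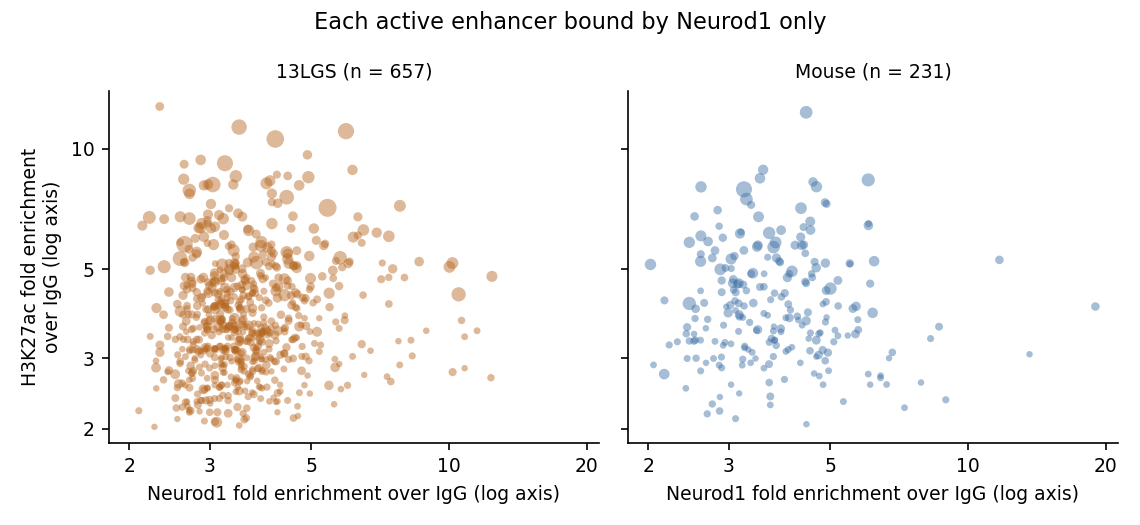
Each point is 1 active enhancer bound by Neurod1 only, placed by its Neurod1 fold enrichment (x) and H3K27ac fold enrichment (y), both over IgG on log axes, with larger points for wider H3K27ac peaks. Most points lie under 5-fold for Neurod1 in both species, and the mouse regions at 13.6-fold and 19.0-fold have modest H3K27ac values of 3.07-fold and 4.04-fold.

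The rule was decided by few bases at some regions. The smallest overlap with a Neurod1 peak was 7 bp in 13LGS and 1 bp in mouse, the medians were 254 and 257 bp, and 18 and 11 regions had under 50 bp. The nearest excluded Otx2 peak lay 14 bp away in 13LGS and 1 bp away in mouse. Just outside the rule, the smallest Otx2 overlap among regions bound by both factors was 9 and 7 bp, and 29 and 24 unbound regions had a Neurod1 peak within 100 bp. Most members were far from such edges. The median distance to the nearest Otx2 peak was 11792 bp in 13LGS and 10316 bp in mouse, 361 (54.9%) and 118 (51.1%) regions were more than 10 kb from one, and 59 and 25 were within 1 kb. The Neurod1 summit itself lay inside the H3K27ac peak at 563 13LGS regions (85.7%) and 184 mouse regions (79.7%), at a median of 191 and 225 bp from the H3K27ac summit.

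Few Neurod1 peaks were of this kind. The 657 13LGS regions used 652 of 4658 Neurod1 peaks (14.0%), and the 231 mouse regions used 230 of 4744 (4.85%). Among those peaks, 24 in 13LGS and 11 in mouse did overlap an Otx2 peak, in a stretch outside the H3K27ac peak.

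Active enhancers bound by both factors outnumbered them, with 1657 in 13LGS and 1631 in mouse. Of all Neurod1-bound active enhancers, 28.4% in 13LGS (657 of 2314, interval 26.6 to 30.3%) and 12.4% in mouse (231 of 1862, 11.0 to 14.0%) lacked Otx2. The share was lowest where Neurod1 was strongest. From the lowest to the highest quartile of Neurod1 enrichment it was 41.5, 36.4, 24.4 and 11.2% in 13LGS, and 20.6, 13.1, 13.1 and 2.79% in mouse. It was also lowest at wide H3K27ac peaks, at 44.9, 38.9, 20.4 and 9.33% from narrow to wide in 13LGS and 19.9, 14.4, 9.07 and 6.22% in mouse. Within width classes the share was 45.9% in 13LGS and 18.7% in mouse under 500 bp, and 11.7% and 6.19% from 2 kb. The part of peak width in these shares was not tested.

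**Figure D2:**
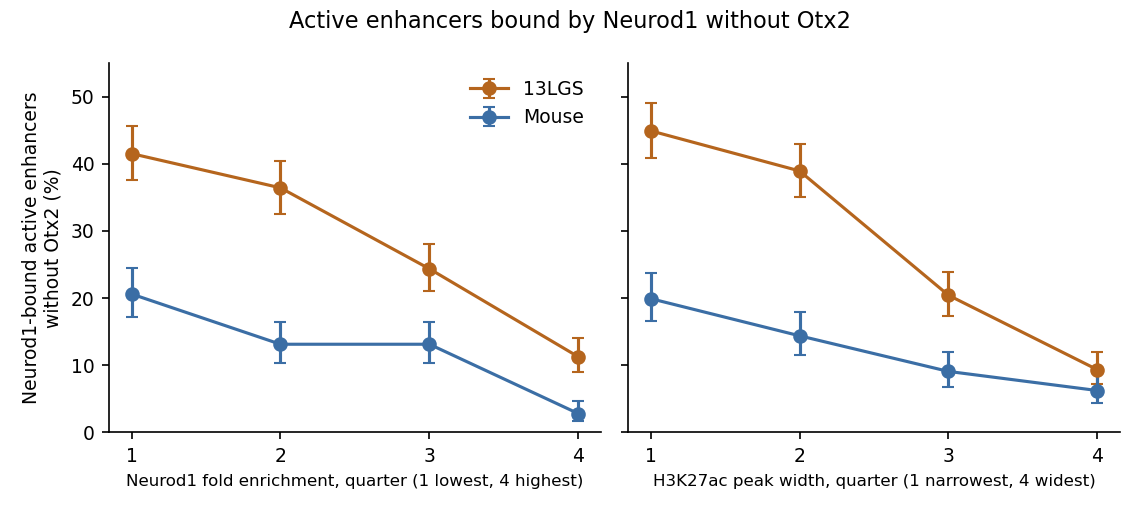
Share of Neurod1-bound active enhancers without an Otx2 peak (y, percent) by quartile of Neurod1 fold enrichment (left) and of H3K27ac peak width (right) in 13LGS and mouse, with 95% Wilson intervals. The share falls from 41.5 to 11.2% in 13LGS and from 20.6 to 2.79% in mouse as Neurod1 enrichment rises.

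The Neurod1-only regions had narrower and weaker H3K27ac peaks than those bound by both factors. A wider H3K27ac peak has more bases in which to overlap an Otx2 peak, so width is tied to the rule. What this adds to the differences was not tested. Median width was 933 bp against 1861 bp in 13LGS and 808 against 1332 bp in mouse, while unbound active enhancers had 412 and 396 bp. Median H3K27ac enrichment was 3.60-fold against 4.92-fold in 13LGS and 3.85-fold against 4.47-fold in mouse. Regions bound by Otx2 only lay between these for both measures, at 1302.5 bp and 4.41-fold in 13LGS and 996 bp and 4.21-fold in mouse. Neurod1 enrichment was also lower without Otx2, at 3.48-fold against 4.19-fold in 13LGS and 3.69-fold against 4.53-fold in mouse.

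**Figure D3:**
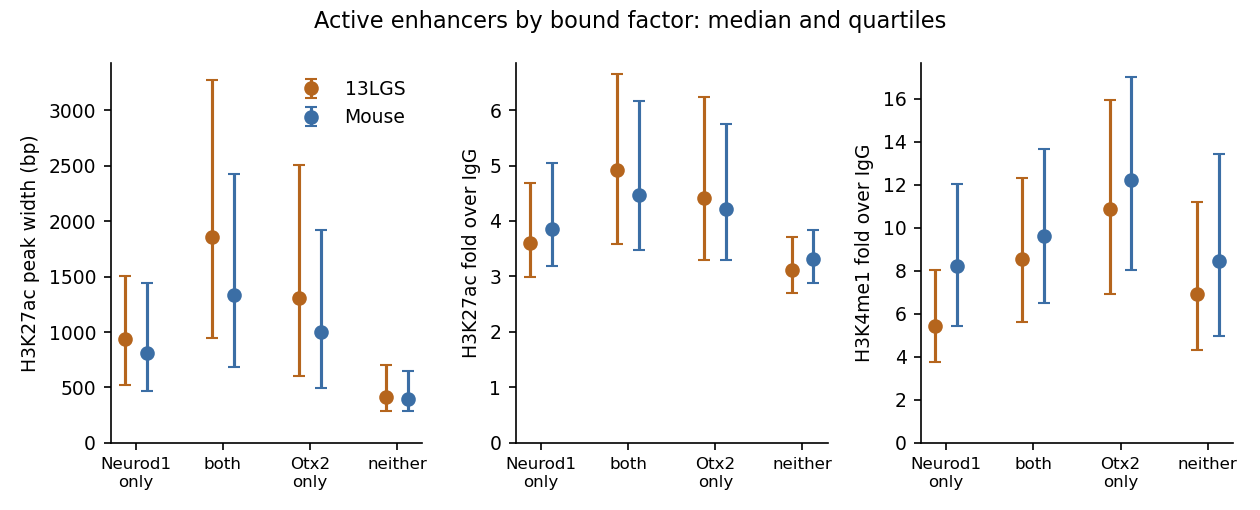
Median (point) and quartiles (bars) of H3K27ac peak width in bp, H3K27ac fold enrichment and, where an H3K4me1 peak overlapped, H3K4me1 fold enrichment, for active enhancers bound by Neurod1 only, both factors, Otx2 only or neither, in 13LGS and mouse. Neurod1-only regions are narrower than those bound by both factors, and their H3K4me1 enrichment has the lowest median of the 4 classes, 5.43-fold in 13LGS and 8.21-fold in mouse. Where several H3K4me1 peaks overlapped a region, the highest was used.

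H3K4me1, which the rule did not use, was present at nearly all Neurod1-only regions but at slightly fewer than in the other bound classes. In 13LGS, 621 of 657 regions overlapped an H3K4me1 peak (94.5%, interval 92.5 to 96.0%), against 68.3% of all active enhancers. The share was 98.7% with both factors, a difference of -4.15 percentage points (interval -6.21 to -2.51, Fisher's exact test, two-sided, adjusted p = 2.7e-07), and 97.5% with Otx2 only (-3.02 points, -5.06 to -1.47, exact test, adjusted p = 8.64e-05). In mouse, 221 of 231 regions overlapped H3K4me1 (95.7%, 92.2 to 97.6%), against 57.3% of all active enhancers. With both factors the share was 99.3% (-3.65 points, -7.12 to -1.62, exact test, adjusted p = 9.69e-05) and with Otx2 only 98.5% (-2.80 points, -6.27 to -0.80, exact test, adjusted p = 0.00454). Some of these calls were lost under stricter settings, and the others were kept. When every list was limited to a −log10 q of 5 or more, the difference from the regions bound by both factors was -2.03 points in 13LGS (adjusted p = 0.108, exact test) and -1.40 in mouse (adjusted p = 0.212, exact test), and with no Otx2 peak within 1 kb the differences from Otx2-only regions were -0.33 and -1.18 points (adjusted p = 0.700 and 0.465, exact test).

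Peak width moved with this measure. The 36 13LGS regions without H3K4me1 had a median width of 510.5 bp against 972 bp for the other 621, and the 10 in mouse had 667 bp against 812 bp. Within width classes the share stayed lower than with both factors, at 88.7% against 93.8% under 500 bp and 97.6% against 99.3% from 1 to 2 kb in 13LGS, and at 93.5% against 97.8% and 93.4% against 99.6% in mouse. From 2 kb, all 35 mouse regions and 100 of 102 13LGS regions overlapped H3K4me1, as did all regions bound by both factors. These within-width shares were not tested. Where several H3K4me1 peaks overlapped a region, the highest enrichment was taken, and wider regions can overlap more peaks. The part of this in the values was not tested. Where an H3K4me1 peak was present, the median enrichment was 5.43-fold in 13LGS, against 8.53-fold with both factors and 10.9-fold with Otx2 only. The mouse values were 8.21-fold, 9.62-fold and 12.2-fold in the same order.

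The mouse regions differed in sequence from those that also carried Otx2. Within 200 bp of the Neurod1 summit, 196 of 231 regions (84.8%, interval 79.7 to 88.9%) contained CAGATG on either strand, against 73.1% of all Neurod1-bound active enhancers. Regions bound by both factors had it in 71.4%, a difference of 13.4 points (7.805 to 18.05, Fisher's exact test, adjusted p = 1.2e-05). TAATCC, the Otx2 motif, was found in 24 regions (10.4%, 7.08 to 15.0%), against 25.7% of all Neurod1-bound active enhancers and 27.9% of those bound by both factors, a difference of -17.5 points (-21.5 to -12.4, exact test, adjusted p = 3.05e-09). The palindromic E-box CAGCTG was found in 121 (52.4%), where the background was 53.3% and the share with both factors 53.5%, and the difference of -1.08 points (-7.95 to 5.71) did not pass the test (exact test, adjusted p = 0.778). At least 1 of the E-boxes CAGATG and CAGCTG was present in 219 regions (94.8%), TAATCC and an E-box together in 23 (9.96%), and none of the motifs in 11 (4.76%). With both factors these shares were 91.0, 24.9 and 5.95%. The classes were set by Otx2 peaks, so a lower TAATCC share without Otx2 is tied to the selection. The letters say nothing of whether a site was occupied.

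Windows around the H3K27ac summit allowed a comparison with regions bound by Otx2 only. CAGATG lay within 200 bp of it in 136 Neurod1-only regions (58.9%), against 31.7% of all active enhancers and 33.0% of the Otx2-only class, a difference of 25.9 points (19.3 to 32.2, Fisher's exact test, adjusted p = 2.69e-14). CAGCTG was found in 98 regions (42.4%), against 23.6% of all active enhancers and 28.9% with Otx2 only (13.5 points, 7.19 to 20.1, exact test, adjusted p = 2.72e-05). TAATCC was found in 17 (7.36%), against 13.8% of all active enhancers and 20.5% with Otx2 only (-13.2 points, -16.1 to -8.92, exact test, adjusted p = 2.27e-07). Neurod1-only regions were chosen by a Neurod1 peak and Otx2-only regions by an Otx2 peak. More E-boxes and fewer TAATCC sites in the former are therefore tied to the selection. With both factors, the shares in this window were 50.9% for CAGATG (interval 48.5 to 53.3%), 39.2% for CAGCTG and 19.0% for TAATCC. Differences from these were not tested in this window. The share of TAATCC in unbound active enhancers was 13.0%. Median GC content around the H3K27ac summit was 51.1% in Neurod1-only regions, 50.9% with both factors, 48.4% with Otx2 only and 44.9% in unbound regions, and its part in the motif shares was not tested.

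**Figure D4:**
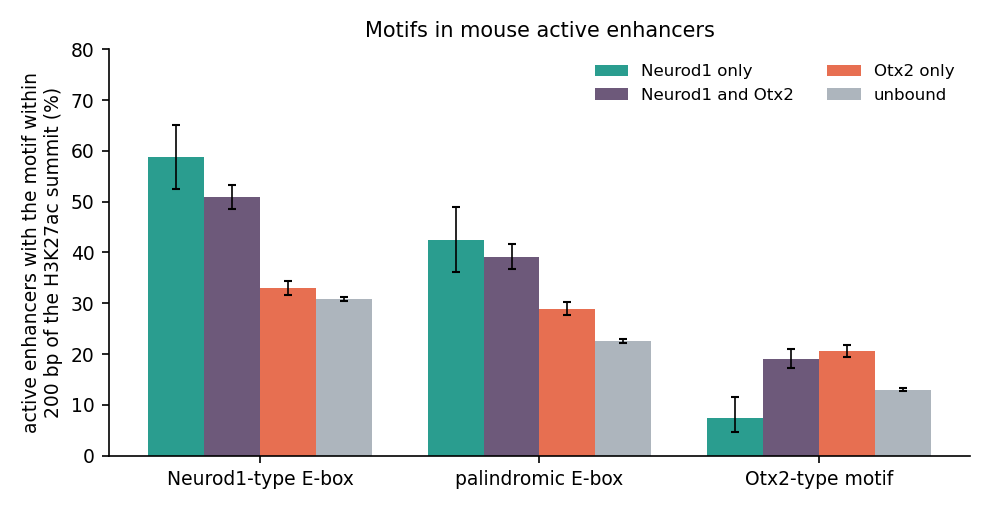
Share of mouse active enhancers (y, percent) with the Neurod1-type E-box CAGATG, the palindromic E-box CAGCTG or the Otx2-type motif TAATCC within 200 bp of the H3K27ac summit, by class, with 95% Wilson intervals. Neurod1-only regions have the highest share of the first, 58.9% against 50.9% with both factors, and the lowest of the third, 7.36%.

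CAGATG and CAGCTG were the E-boxes concentrated at Neurod1 summits. The 231 regions held 343 CAGATG sites within 200 bp of the summit, or 1.48 per region, 3.81 times the number in windows of equal size 1 kb away. CAGCTG had 179 sites, 0.775 per region and 2.98 times the number 1 kb away. The other 8 kinds of CANNTG site had ratios between 0.75 and 1.24. Regions bound by both factors held 1.06 CAGATG sites (2.91 times) and 0.755 CAGCTG sites (3.16 times) per region. Repeated CAGATG was more frequent without Otx2, where 71 regions had 2 sites and 29 (12.6%) had 3 or more, against 6.01% with 3 or more among regions bound by both factors. Whether the counts of repeated sites differ was not tested.

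The density of sites was highest at some distance from the summit. In Neurod1-only regions CAGATG density was 1.95 sites per kb within 50 bp of the summit, rose to 4.89 per kb at 100 to 150 bp and 4.63 at 150 to 200 bp, and was 0.91 per kb at 450 to 500 bp. The same shape at a lower height, with 4.02 sites per kb at 100 to 150 bp, was seen with both factors. TAATCC showed no such rise in Neurod1-only regions, with 0.13 to 0.39 sites per kb in every 50 bp step, whereas regions bound by both factors reached 1.16 per kb at 150 to 200 bp.

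**Figure D5:**
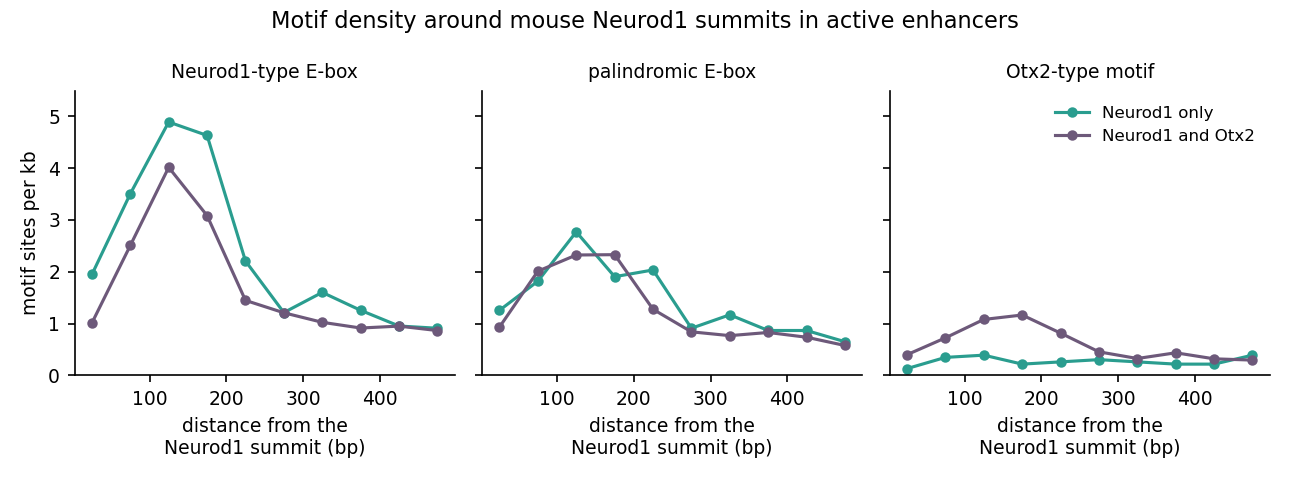
Motif sites per kb (y) against distance from the Neurod1 summit in bp (x), in 50 bp steps with both sides and both strands joined, in mouse active enhancers bound by Neurod1 only or by both factors. The Neurod1-type E-box CAGATG peaks at 4.89 sites per kb in Neurod1-only regions, while the Otx2-type motif TAATCC stays at or under 0.39.

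Mouse Neurod1-only regions lay within introns more often than the other bound classes. The centre of 165 of 231 (71.4%, interval 65.3 to 76.9%) was in a GENCODE gene but in no exon, 20 (8.66%) were on an exon and 46 (19.9%) were outside genes. Introns held 64.9% of all active enhancers and 65.6% of unbound ones, 59.3% of those bound by both factors (a difference of 12.1 points, 5.56 to 18.1, Fisher's exact test, adjusted p = 0.000803) and 58.5% of those bound by Otx2 only (12.9 points, 6.63 to 18.5, exact test, adjusted p = 0.000349). When the TF summit had to lie inside the H3K27ac peak, both differences were no longer past the threshold (6.25 and 7.39 points, adjusted p = 0.120 and 0.0867, exact test). A transcript start lay within 1 kb of the centre of 25 regions (10.8%), where the background was 6.93% of all active enhancers. The shares with both factors (11.7%) and with Otx2 only (10.4%) differed from it by -0.89 points (-4.65 to 4.004) and 0.47 points (-3.03 to 5.21), neither past the test (adjusted p = 0.825 for each, exact test). This share is tied to the exclusion of H3K4me3 peaks, which mark starts. The median distance to the nearest annotated transcript start, of any gene type, was 9008 bp, against 9158 bp with both factors and 15191 bp in unbound regions.

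The regions were spread over many genes. The 231 mouse regions had 219 different nearest protein-coding genes, of which 207 had 1 region, 12 had 2 and none had 3 or more. Among the 12, named here after their values were seen, were *Fam53b*, *Iqsec1*, *Nfasc*, *Prex1*, *Ralgapa2*, *Rhbdl3*, *Rps6ka2*, *Slc12a9*, *Susd6* and *Zmiz1*. Of the 219 genes, 74 (33.8%) were also nearest to an enhancer bound by both factors, which is 6.17% of the 1200 genes of that class. No share over all genes nearest to an active enhancer is given here, so this overlap cannot be read as high or low. *Zmiz1*, a transcriptional co-regulator, had 2 Neurod1-only regions and 6 bound by both factors among 53 active enhancers. *Fam53b* had 2 Neurod1-only regions and none bound by both factors among 22. Regions bound by both factors were 2.80% of all mouse active enhancers, so an absence among 22 is no result about *Fam53b*.

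Few regions were nearest to a gene of the photoreceptor TF list, as was so for active enhancers in general. Of 15 photoreceptor TF genes, 3 were nearest to a Neurod1-only region (3 of 231 regions, 1.299%, against 0.358% of all active enhancers and 1.16% of those bound by both factors). All 3 regions were intronic and overlapped H3K4me1. The region in *Casz1*, a zinc finger TF of retinal progenitors and photoreceptors, had a Neurod1 enrichment of 5.19-fold and an H3K27ac enrichment of 4.69-fold (chr4:148854463-148855968), with 3 CAGATG sites at its Neurod1 summit. The region in *Nr2e3*, a nuclear receptor that favours rod over cone genes, reached 2.52-fold for Neurod1 (chr9:59955826-59956099), and held CAGCTG and TAATCC but no CAGATG. The region in *Mef2d*, a TF active in photoreceptors, had 2.17-fold for Neurod1, among the lowest of the 231, and lay 324 bp from an Otx2 peak (chr3:88148683-88151402).

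Among 20 genes of neuronal differentiation and synapse, *Nfasc* and *Snap25* were nearest to 3 regions (1.299%, against 0.873% of all active enhancers). *Nfasc*, a cell adhesion protein of the axon initial segment, had an intronic region at 6.44-fold for Neurod1 (chr1:132709764-132710223), 43 bp from an Otx2 peak, and another at 3.70-fold (chr1:132660531-132661088), 46358 bp from one. *Snap25*, a protein of synaptic vesicle fusion, had an intronic region at 2.69-fold (chr2:136753738-136754380). No Neurod1-only region was nearest to any of 29 phototransduction genes, 28 neurogenic bHLH and Notch genes, 20 genes of progenitors and Müller glia, 17 of bipolar cells, 28 of ganglion, amacrine and horizontal cells, or 26 of other cells of the eye. In the same order these lists were nearest to 0.0395, 0.325, 0.303, 0.0567, 0.108 and 0.168% of all active enhancers, so that 0 of 231 regions is near the background for each. Regions bound by both factors were likewise nearest to 0 phototransduction and 0 bipolar genes, and 23 (1.41%) were nearest to neurogenic bHLH and Notch genes. Over all lists together the share was 6 of 231 (2.60%), against 2.23% of all active enhancers. Accessible elements that the study linked to *Rxrg*, *Thrb* or *Mef2c*, TF genes of the cone program, overlapped no Neurod1-only region in either species. Few active enhancers overlapped these elements at all. In 13LGS, 2 at *Rxrg* elements were bound by both factors and 14 were unbound, and at *Thrb* elements 1 was bound by both, 3 by Otx2 only and 11 were unbound. In mouse, 1 at an *Rxrg* element was bound by both factors, and no active enhancer overlapped a *Mef2c* element in either species. At shares of 0.768% and 0.397% of all active enhancers, an absence among so few is no result about the Neurod1-only regions.

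The share of Neurod1-only regions varied between chromosomes. In 13LGS they made up 2.13% of active enhancers on Itri16 (35 of 1640) and 0.198% on Itri15 (6 of 3027), and in mouse 1.02% on chromosome 11 (27 of 2636) and 0.118% on chromosome 18 (3 of 2536). Another Neurod1-only region lay within 50 kb for 121 of the 657 13LGS regions (18.4%) and 12 of the 231 mouse regions (5.19%), where 13LGS has more regions to begin with. The median gap between neighbours was 944746 bp in 13LGS and 3835060 bp in mouse.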

How the data were processed

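The authors trimmed reads with cutadapt 3.5 and Trim Galore 0.6.4, aligned them with Bowtie2 to GRCm38 or HiC_Itri_2, removed low mapping quality with SAMtools 1.12, deduplicated with UMI-tools and called peaks jointly over the libraries of each target with MACS2 (IgG as control, q-value threshold 0.05). Mitochondrial and blacklisted peaks were removed in mouse only. The deposited lists hold the fold enrichment over IgG (a ratio) at each peak's summit and the −log10 q-value. Joint calling leaves no value per replicate, and depth is not in the lists.

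The 10 lists were overlapped by at least 1 bp with code tested on simulated data against bedtools 2.31.1. Active enhancers here are H3K27ac peaks without H3K4me3, with no accessibility filter. Shares were compared by two-sided Fisher's exact test (scipy 1.17.1), with Benjamini-Hochberg adjustment within the families of 4 H3K4me1, 6 motif and 4 gene position tests at a threshold of 0.05. Intervals of differences were Newcombe's and cover counting error only. Motifs were searched on both strands of the RefSeq GRCm38 sequence, and genes came from GENCODE M21 by the nearest protein-coding start to the peak centre. A 13LGS genome and annotation were not used here.

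Regions named were the 8 highest by Neurod1 enrichment per species, those nearest a gene of the fixed lists (at most 4 per list), and any on elements linked to the cone genes, and genes nearest to 3 or more regions would have been named. Some items that this rule names are not reported here. The set of regions, the lists and the tests were chosen with earlier results of these data known. In all, 11 other settings, and 1 chosen after seeing the data, were tried.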

Additional observations from a re-analysis of the deposited data

How the results depend on the processing

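Of the alternative values, 108 from planned settings and 16 from a setting added after seeing the data (no Otx2 peak on the Neurod1 peak itself) kept their direction and side of the threshold, or stayed within 1.5 times for counts. The CAGATG and TAATCC differences, and CAGCTG against Otx2-only regions, kept their call under all 9 settings run for each, at 11.9 to 15.4 and 12.7 to 28.6 points for CAGATG against both factors and Otx2 only, 10.3 to 15.7 for CAGCTG, and -21.5 to -5.17 and -15.7 to -6.32 for TAATCC. Except for CAGATG against both factors, the directions of these differences are tied to how the classes were chosen. The number of regions ranged from 420 to 728 in 13LGS and 163 to 258 in mouse. The share of Neurod1-bound active enhancers without Otx2 ranged from 25.4 to 34.2% and 11.1 to 16.1%.

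With −log10 q of at least 5 in every list, 13LGS had 420 regions, and 4 differences were no longer past the threshold: H3K4me1 against both factors (-2.03 points in 13LGS, -1.40 in mouse), H3K4me1 against Otx2 only in mouse (-1.74), and intron share against both factors (8.34). The mouse H3K4me1 difference from Otx2-only regions was also lost with folds of at least 2.5 (-1.46) and with no Otx2 peak within 1 kb (-1.18), where the 13LGS one was lost too (-0.33). The 1 kb setting also widened the Otx2-only class, to unbound regions with an Otx2 peak within 1 kb. The intron differences were lost with the TF summit inside the H3K27ac peak (6.25 against both factors, 7.39 against Otx2 only). Differences that passed no test changed sign as follows. CAGCTG against both factors became 0.21 (overlap of 100 bp), 2.63 (−log10 q of at least 5), 0.46 (equal numbers of peaks) and 1.64 (motif within 100 bp). The share near a transcript start became -0.50 (100 bp), -0.81 (−log10 q) and -0.15 (fold) against Otx2 only, and 0.14 (peaks merged within 500 bp) and 1.83 (5 kb) against both factors. The cause was not tested. No replicate could be left out, because the lists pool replicates. No paired analysis was possible because the pooled lists carry no replicate numbers.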
